A study of Macaca mulatta with 30 samples.

Results

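The hippocampus of rhesus macaque fetuses was compared between mothers given betamethasone acetate alone (Beta-Ac, libraries named BAC) and mothers given saline (control animals, libraries named CTL), at delivery 5 days after treatment. The comparison took 10 of the 15 hippocampus libraries, 5 BAC and 5 CTL, in a series of 30 samples that also holds fetal lung. Members were chosen by library name. The dose was 0.125 mg/kg of Beta-Ac for the BAC animals, against 1 mL of saline for the controls, and the remaining 5 hippocampus libraries (CEL) came from animals given 0.25 mg/kg of the clinical drug, a mixture of betamethasone phosphate and betamethasone acetate. All were total RNA of unsorted tissue, read as poly(A) libraries with paired reads of 75 bp. Gestational age at delivery was 130 to 135 days in CTL and 132 or 133 days in BAC, and 131 to 136 days in CEL.

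The treatment and dose fields of the hippocampus labels are exchanged between BAC and CEL relative to the library names. For 3 of the 5 animals in each drug group a lung library of the same animal is labelled as the name says, so the names were followed here, and the control group is the same under either reading. If the fields were right instead, the comparison would be the one given below as CEL against CTL, with 1366 genes called.

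Betamethasone is a synthetic glucocorticoid that crosses the placenta and is given before a preterm birth to mature the fetal lung. It binds the glucocorticoid receptor (NR3C1), which moves to the nucleus and raises or lowers the transcription of target genes, among them FKBP5, a chaperone of the receptor that damps its own signal, and PER1, a clock gene. The hippocampus is rich in this receptor and in the mineralocorticoid receptor (NR3C2). In the fetus it is a growing tissue, with progenitors in the ventricular zone and dentate gyrus, young neurons, axons under way, and the earliest myelin.

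Each library held 18.3 to 29.3 M reads assigned to genes, 18.3 to 25.9 M in CTL and 22.7 to 29.3 M in BAC. Markers of hippocampal neurons were present in all libraries. PROX1, a transcription factor of dentate granule cells, stood between 20.3 and 43.5 CPM (reads scaled to the size of the library) in CTL and between 10.1 and 50.6 CPM in BAC, and NEUROD6, of pyramidal neurons, between 105.5 and 286.2 CPM in CTL and between 96.6 and 250.0 CPM in BAC. Another defining gene, ZBTB20, was low throughout, at 0.371 to 1.83 CPM over both groups. In tissue of this kind fewer cells of a type and less RNA per cell cannot be told apart.

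Libraries with transcripts of neighbouring structures were found in both groups, and 4 of the 10 stood apart. In CTL212 the summed choroid plexus markers reached 2158 CPM against 41.1 to 72.4 CPM in the other 14 libraries, and the meningeal and fibroblast markers reached 2013 CPM. In BAC130 the meningeal and fibroblast markers stood at 1678 CPM, with FOXC2, a transcription factor of meningeal mesenchyme, at 17.4 CPM against 0.181 to 0.509 CPM in the other BAC libraries. BAC235 had the highest sum of the thalamus and diencephalon list, 427 CPM, of which ZIC1 alone gave 223.7 CPM. LHX1, also of that list, was at 8.39 CPM against 0.325 to 0.95 CPM in the other BAC libraries. CBLN1, NHLH1 and INSM1 were also far above all other libraries in BAC235. No list for cerebellum or hindbrain was checked, so the region these transcripts came from was not tested. CTL092 and BAC235 also carried 0.749% and 0.721% of their reads on 37 consecutive gene identifiers that took 7.37% to 17.5% in the others. Values below are from all libraries unless a sentence says otherwise, and values without these libraries stand beside the results they changed most.

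**Figure D1:**
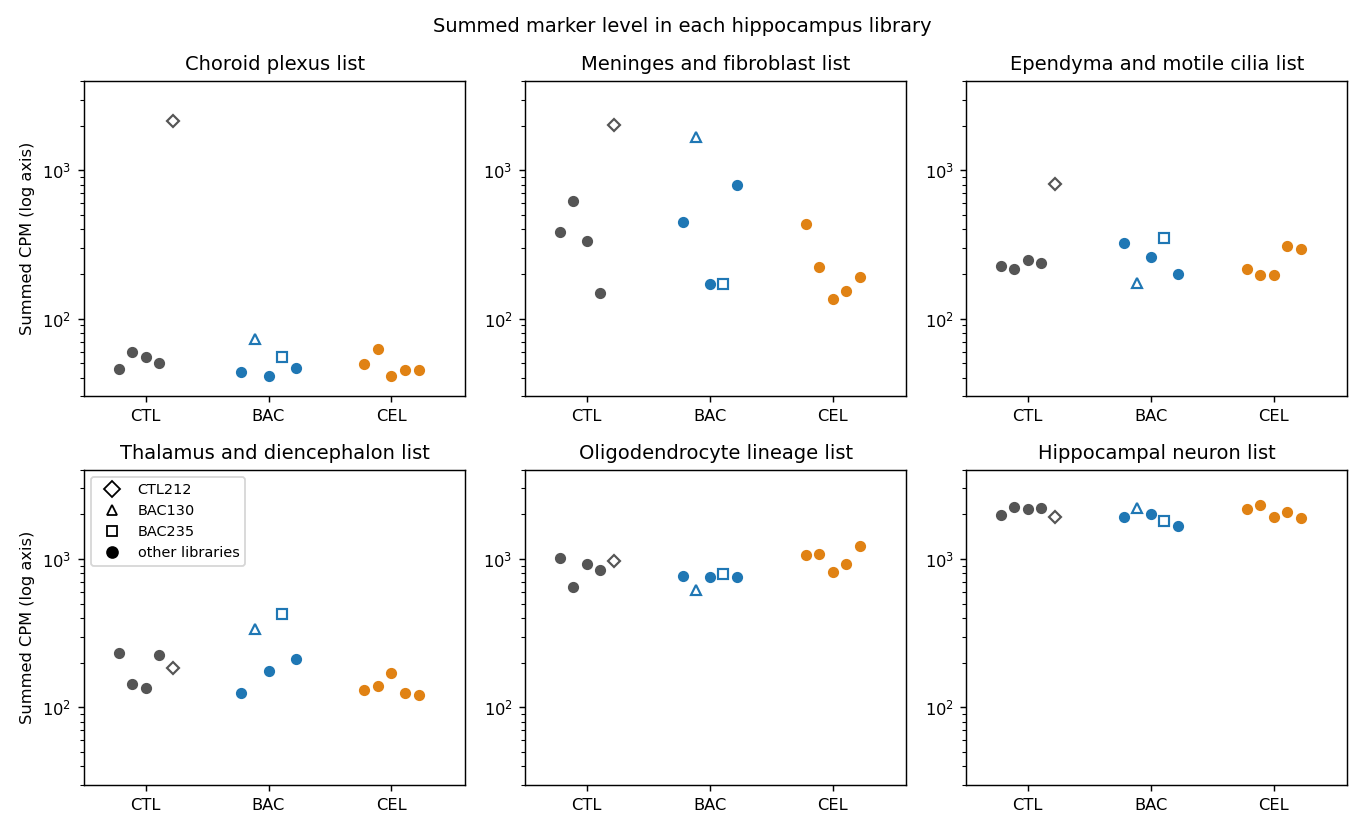
Summed level of 6 marker lists (CPM, log axis) in each hippocampus library, by group (CTL saline, BAC Beta-Ac, CEL clinical drug); each point is a library and open symbols mark CTL212, BAC130 and BAC235. CTL212 stands at 2158 CPM of choroid plexus markers while the other 14 libraries lie between 41.1 and 72.4 CPM, and the hippocampal neuron sums of the groups overlap.

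No gene was called in BAC against CTL at the thresholds used here. Of 17390 genes tested with the quasi-likelihood F-test of edgeR, 0 (0%) reached a fold change of 1.5 with a p under 0.05 and a Benjamini-Hochberg adjusted p under 0.1, and the smallest adjusted p was 0.127. Without CTL212 the count was 0 of 17300, the smallest adjusted p was 0.111, and 2291 genes (13.2%) had an unadjusted p under 0.05. At an unadjusted p under 0.05 there were 2133 genes (12.3%), 837 higher in BAC (4.81%) and 1296 lower (7.45%). Uniform p values would give 870 such genes. Values are correlated within a library, so the excess was not measured against chance. With the fold threshold added there were 204 higher and 413 lower. The median log2 fold change over all genes was -0.01, and 48.5% of genes lay above 0.

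Other tests of the same counts called some genes, mostly lower in BAC. Storey's q value in place of the Benjamini-Hochberg adjustment, as the study's methods describe for lung, gave 1 call, lower in BAC. DESeq2 called 149 genes (24 higher, 125 lower), the edgeR likelihood ratio test 108 (11 and 97) and the edgeR exact test 104 (10 and 94). Leaving out BAC128 gave 184 calls (11 and 173) in the quasi-likelihood test, while leaving out any other library of BAC or CTL gave 0. The sequencing run labelled run0164, fitted alone with BAC235 and BAC237 against CTL212, gave 300 calls, 287 of them lower; there the lone control, the one with choroid plexus transcripts, was assumed to vary like the drug libraries.

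No separation of the groups as a whole was detected. The mean Euclidean distance between a BAC and a CTL library on log2 CPM was 91.9, against 91.1 within BAC and 91.8 within CTL. The difference of 0.488 between these was not unusually large among the ways to split the 10 libraries (exact one-sided permutation test, p = 0.397, the smallest p the 252 splits allow being 0.003968). BAC libraries did not differ detectably from each other more or less than controls did (91.1 against 91.8, exact two-sided permutation test, p = 0.968). Without CTL212 the mean distance within CTL was 76.8 and the difference was 14.3 (exact two-sided permutation test, p = 0.167).

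The BAC libraries differed in how near they lay to the other groups. BAC136 was at a mean distance of 76.0 from the CEL libraries and 90.9 from the CTL libraries, and BAC128 at 78.0 and 87.4. BAC237 was at 85.5 and 83.2, and BAC235 at 100.2 and 101.5. BAC130 was at 90.2 and 96.5. The control CTL113, at 77.7 from the CEL libraries, lay at about the same distance as BAC128. BAC128, BAC130, BAC136 and CTL113 came from the sequencing run labelled run1630, as did CEL115, CEL120 and CEL126. BAC235 and BAC237 came from run0164. The distances were not tested, nor was the part of the run in them.

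**Figure D2:**
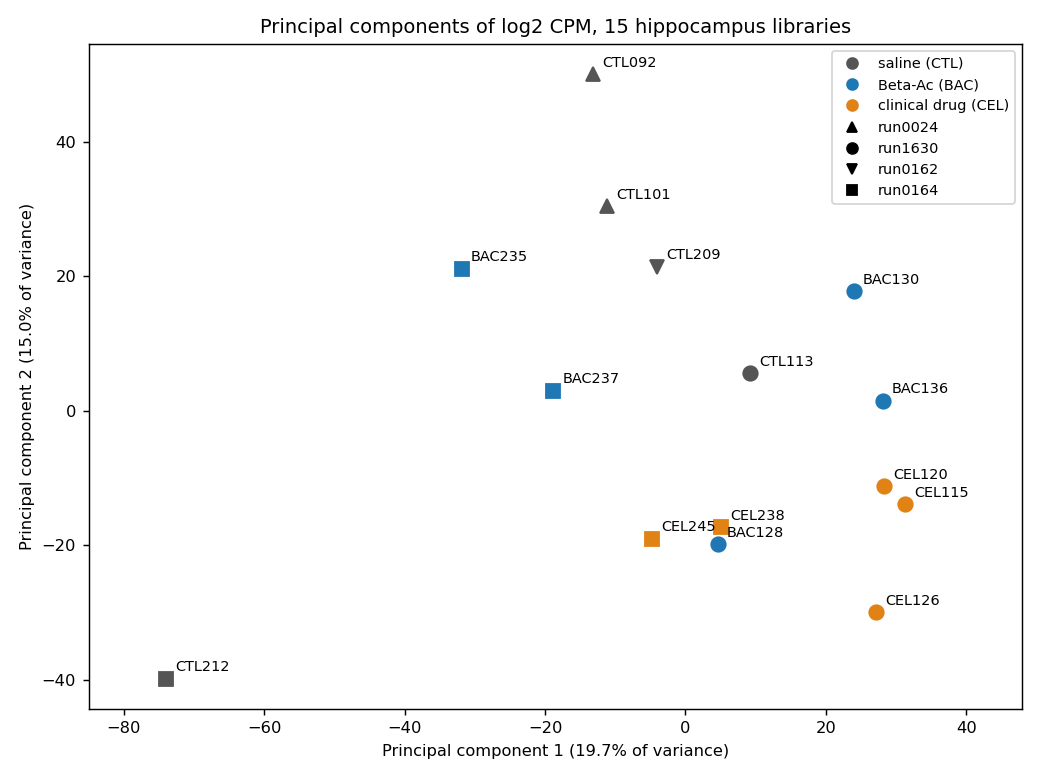
Principal components 1 and 2 of log2 CPM (19.7% and 15.0% of the variance, in arbitrary units) for the 15 hippocampus libraries, coloured by group with the sequencing run as symbol. CTL212 lies at -74 on component 1, and the BAC libraries spread from -31.9 to 28.1 among both other groups.

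The named genes were those of smallest p whose BAC and CTL libraries did not overlap. Such a gene had every BAC library above or below every CTL library, which was so for 80 genes above (0.46%) and 151 below (0.868%), and the further conditions of a symbol, a fold change of at least 1.5 and a minimum level left 3 above and 42 below, of which the 10 of smallest p were named. Since no overlap was a condition of their choice, their direction is a description. None passed the adjusted test, with adjusted p of 0.213 for each of the 10 lower genes and 0.229 to 0.252 for the 3 higher ones.

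MAGI3 (ENSMMUG00000017817), a scaffold protein of cell junctions and synapses, had the smallest p of these. Its levels were 33.3, 25.9, 22.9, 27.4 and 28.2 CPM in the CTL libraries and 15.7, 17.8, 13.1, 11.52 and 17.2 CPM in the BAC libraries. The lowest control, CTL113, lay well above the highest BAC library, BAC130. Means were 27.6 ± 3.78 and 15.1 ± 2.70 CPM (SD, n = 5 each), a log2 fold change of -0.87 (SE 0.17, 95% interval -1.22 to -0.52).

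CACNA1E, the pore subunit of R-type calcium channels, stood at 126, 136, 123, 138 and 88.0 CPM in CTL and 83.8, 78.6, 58.8, 46.3 and 66.0 CPM in BAC. CTL212 was the lowest control and lay close to BAC128, the highest BAC library. The log2 fold change was -0.88 (SE 0.18) and -0.97 without CTL212. CAMK1D, a calcium- and calmodulin-dependent kinase of neurons, had a log2 fold change of -0.97 (SE 0.21), with means of 24.3 CPM in CTL and 12.4 CPM in BAC. Its groups all but touched, at 18.64 CPM in CTL209 and 18.63 CPM in BAC128.

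GFRA1 encodes the co-receptor that binds the neurotrophic factor GDNF. Its CTL libraries held 15.7, 19.2, 16.2, 10.6 and 11.2 CPM and its BAC libraries 8.88, 8.69, 5.79, 8.73 and 6.21 CPM. The groups came nearest at CTL209 and BAC128. The log2 fold change was -0.93 (SE 0.20, 95% interval -1.35 to -0.51).

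Of the remaining 6 lower genes, CBX5, which encodes the heterochromatin protein HP1 alpha, was at a mean of 21.3 CPM in CTL and 12.2 CPM in BAC (log2 fold change -0.81, SE 0.16). SNX30, a sorting nexin of endosomes, was at 8.34 and 3.75 CPM (-1.15, SE 0.24), KIF16B, a kinesin that carries endosomes, at a log2 fold change of -0.60 (SE 0.13), and INPP4A, a phosphatase of membrane phosphoinositides, at -0.70 (SE 0.14). The endoplasmic reticulum genes SEL1L, an adaptor of protein degradation, and REEP1, which shapes the reticulum in axons, had log2 fold changes of -0.66 (SE 0.15) and -0.59 (SE 0.13).

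The higher genes were ICOSLG, LPAR1 and LDHB. ICOSLG, a ligand that co-stimulates T cells, was at 11.3, 19.7, 16.4, 11.2 and 16.4 CPM in CTL and 20.3, 20.6, 21.7, 32.1 and 26.7 CPM in BAC, so that CTL101 came close to BAC128, the lowest BAC library. Its log2 fold change was 0.69 (SE 0.17). LPAR1, a receptor for lysophosphatidic acid found on progenitors and oligodendrocytes, had a mean of 4.58 ± 1.12 CPM in CTL and 7.26 ± 1.56 CPM in BAC (SD, n = 5 each, log2 fold change 0.66, SE 0.20). LDHB (ENSMMUG00000002679), a subunit of lactate dehydrogenase, had means of 2.65 ± 0.239 and 4.06 ± 0.621 CPM (SD, n = 5 each, log2 fold change 0.62, SE 0.16). Its symbol is carried by 2 identifiers in the table, both tested, and the split of reads between them is uncertain. The other identifier led the genes that stood furthest above all other libraries in BAC128. The values given are thus not those of LDHB as a whole.

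Sequencing run and group were partly confounded: CTL092, CTL101 and CTL209 came from runs without a BAC library. Where run is fitted as a block, these controls do not bear on the difference between BAC and CTL. That difference then rests on the controls CTL113 and CTL212, the latter being the library with choroid plexus transcripts. Within run1630 (BAC128, BAC130 and BAC136 against CTL113) the 3 higher genes had log2 fold changes of 0.35 to 0.57 and the 10 lower genes -1.08 to -0.48. Within run0164 (BAC235 and BAC237 against CTL212) the ranges were 0.26 to 0.86 and -1.13 to -0.20.

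**Figure D3:**
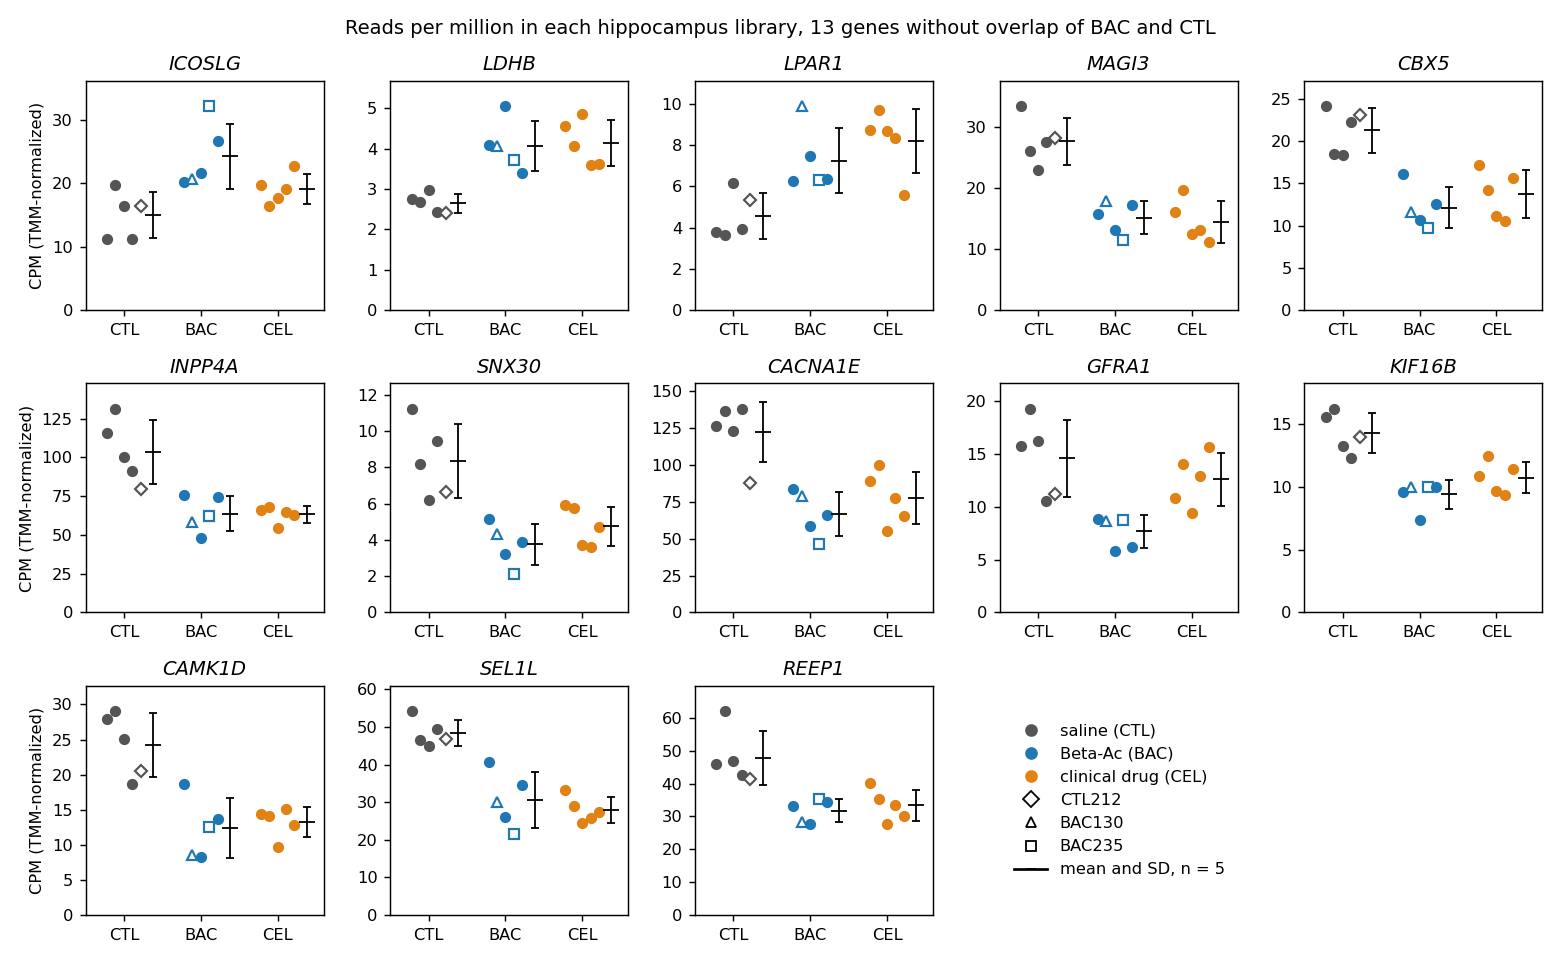
CPM of the 13 named genes in each hippocampus library of CTL, BAC and CEL, with the mean and SD (n = 5) beside each group; open symbols mark CTL212, BAC130 and BAC235. In every panel the BAC points lie wholly above (ICOSLG, LDHB, LPAR1) or wholly below (the other 10) the CTL points, which was the condition of choice.

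The tests that did call genes shared a set. DESeq2, the exact test, the likelihood ratio test and the fit without BAC128 had 62 calls in common, 4 higher and 58 lower, of 263 made by any of them. All were fits of the same counts, with all or nearly all of the same libraries, so the overlap is no independent support. The 104 calls of the exact test were all among the 108 of the likelihood ratio test. The genes given next from that set were picked after their values were seen. Neuronal ion channels were among those lower in BAC: the sodium channel SCN8A was at 119.5 CPM in CTL and 61.8 CPM in BAC (log2 fold change -0.95), and the potassium channels KCNQ3 and KCNH5 had log2 fold changes of -0.86 and -1.22. MYO5A, a myosin that carries vesicles in neurons, was at 144.6 and 79.5 CPM (-0.86). Others were the adhesion molecule CHL1 (434.9 and 285.1 CPM), the matrix protein TNR of perineuronal nets (80.6 and 41.5 CPM), the splicing factor RBFOX1 (-0.60), the argonaute proteins AGO1 and AGO2 (-0.74 and -0.96) and the glycoprotein folding sensor UGGT1 (-0.85). In the quasi-likelihood test their adjusted p lay between 0.213 and 0.240.

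Direct glucocorticoid targets did not differ detectably 5 days after Beta-Ac. FKBP5 was at 3.003, 4.12, 5.09, 3.49 and 4.96 CPM in CTL and 5.85, 6.55, 3.15, 2.82 and 4.04 CPM in BAC. BAC128 and BAC130 were above every control, BAC235 was below every control, and BAC136 and BAC237 lay among them. The log2 fold change was 0.12 (SE 0.25, 95% interval -0.41 to 0.64, adjusted p = 0.889).

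No other member of the panel with a match, HSD11B2 excepted, had an interval that left out 0. ZBTB16, a zinc finger factor strongly induced by glucocorticoids in many tissues, had a log2 fold change of -0.06 (95% interval -0.55 to 0.43). The intervals of PER1 (-0.17; -0.45 to 0.11), ERRFI1, an inhibitor of growth factor receptors (0.10; -0.14 to 0.35), and SGK1, a kinase of ion transport (0.25; -0.07 to 0.57), also held 0. SGK1 was highest in BAC130, at 123 CPM against 60.5 to 84.9 CPM in the other 9 libraries. PDK4, a kinase that restrains pyruvate oxidation, had a log2 fold change of -0.40 with CTL212, where it was highest at 5.96 CPM, and 0.12 without it. KLF9, TSC22D3 and HSD11B1 were not matched to an identifier.

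Of 22 tested targets in the wider list, 16 were higher and 6 lower in BAC. Their median log2 fold change was 0.11 (0.16 without CTL212). At an unadjusted p under 0.05 there was 1, higher in BAC, beside 4.81% of all genes. It was TXNIP, an inhibitor of thioredoxin. TXNIP stood at 110, 114, 148, 118 and 172 CPM in CTL and 196, 191, 170, 152 and 184 CPM in BAC. CTL212 was the highest control and lay within the range of BAC. The log2 fold change was 0.43 (SE 0.15, adjusted p = 0.286) and -0.02 within run0164. PLEKHF1, an endosomal protein, was next in the list, with a log2 fold change of 0.48 (95% interval -0.09 to 1.05).

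Among the corticosteroid receptors and their cofactors 4 of 16 were higher and 12 lower (median -0.13). NR3C1 was at 23.9, 21.4, 26.3, 20.1 and 27.6 CPM in CTL and 23.1, 26.1, 22.6, 12.98 and 17.1 CPM in BAC (log2 fold change -0.23, 95% interval -0.59 to 0.13). The lowest levels were those of BAC235 and BAC237, and the other BAC libraries lay among the controls. NR3C2 had a log2 fold change of -0.07 (95% interval -0.52 to 0.37). The corepressor NCOR1 had a log2 fold change of -0.35 (adjusted p = 0.240).

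HSD11B2, the enzyme that inactivates cortisol, had the largest positive value of the panel, which rested on BAC235. It was at 0.400 to 1.44 CPM in CTL and at 0.758, 0.618, 0.463, 15.4 and 1.12 CPM in BAC. The log2 fold change was 2.19 (SE 0.85, adjusted p = 0.326) and -0.10 without BAC235. BAC235 was also the library highest in LHX1 and the thalamus list.

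Clock genes, which glucocorticoids entrain in many tissues, included 6 of 17 higher and 11 lower, with a median of -0.17 (-0.08 without CTL212, -0.03 without CTL212 and BAC235, -0.0045 within run1630 and -0.33 within run0164). At an unadjusted p under 0.05 there were 6, all lower, beside 7.45% of all genes, and 3 without CTL212. The nuclear receptor RORB had a log2 fold change of -0.90 and the output factor HLF -0.53 (adjusted p = 0.280 and 0.328), and PER3, CRY2, NPAS2 and RORA had values of -0.40, -0.19, -0.34 and -0.73.

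**Figure D4:**
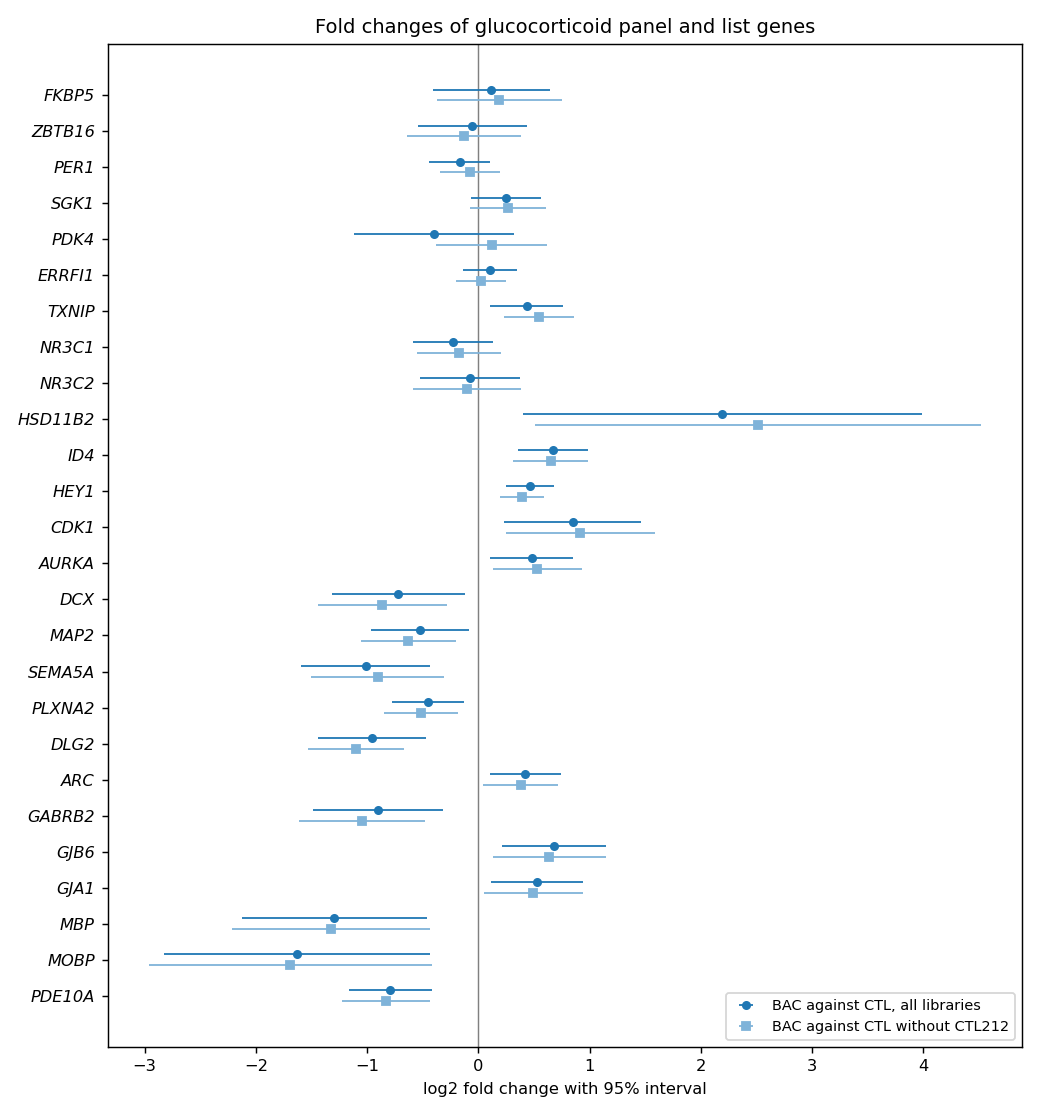
Log2 fold change of BAC against CTL with its 95% interval for the glucocorticoid panel and genes of the neural lists, from all libraries (dark) and without CTL212 (light). The intervals of FKBP5, ZBTB16, PER1, SGK1, PDK4, ERRFI1, NR3C1 and NR3C2 cross 0, and no gene shown passed the adjusted test.

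Neural progenitor genes were mostly higher in BAC. Of 16 tested, 13 were higher and 3 lower, with a median of 0.29 (0.30 without CTL212) against -0.01 over all genes, and 6 had an unadjusted p under 0.05, all higher, beside 4.81% of all genes. The median was 0.14 with sequencing run as a block, 0.14 within run1630 and 0.18 within run0164. ID4, an inhibitor of differentiation kept up in progenitors and astrocytes, was at 72.6, 74.8, 92.2, 111 and 80.9 CPM in CTL and 119, 150, 185, 109 and 125 CPM in BAC. BAC235 lay just below CTL209 and the other BAC libraries lay above every control. Its log2 fold change was 0.67 (SE 0.15, adjusted p = 0.213).

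HEY1, an effector of Notch signalling that holds progenitors undifferentiated, did not overlap between groups. It was at 45.6, 48.3, 57.8, 49.5 and 38.3 CPM in CTL and 60.9, 75.7, 66.9, 68.0 and 58.8 CPM in BAC (log2 fold change 0.46, SE 0.10, adjusted p = 0.213). The groups came nearest at CTL113 and BAC237. Others were PAX6, NR2E1 and LHX2, transcription factors of progenitors, with log2 fold changes of 0.57, 0.32 and 0.22. PAX6 was at -0.16 within run1630.

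Proliferation genes had a median of 0.21 over 32 tested members, 24 higher and 8 lower. Of these, 4 had an unadjusted p under 0.05, all higher, beside 4.81% of all genes. The list median rested on BAC235: it was -0.01 without that library, 0.36 without CTL212 and 0.03 with run as a block. The kinase CDK1, which drives entry into mitosis, was at 1.101, 0.933, 1.16, 1.03 and 1.32 CPM in CTL and 3.07, 1.03, 1.99, 2.28 and 1.63 CPM in BAC. Of the BAC libraries BAC130 lay among the controls and the others above them (log2 fold change 0.85, SE 0.29, adjusted p = 0.278). The mitotic kinase AURKA, the cyclin CCNA2 and the replication clamp PCNA had values of 0.48, 0.26 and 0.30.

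Young neuron and dentate granule genes were divided, with 10 of 21 higher and 11 lower (median -0.00). The median was -0.13 without CTL212, 0.20 with run as a block, -0.01 within run1630 and 0.53 within run0164. NEUROD1, which drives granule cell differentiation, had a log2 fold change of 0.69 (adjusted p = 0.373), and -0.09 within run1630. DCX, a microtubule protein of migrating neurons, was at 120, 91.6, 68.5, 83.2 and 48.6 CPM in CTL and 63.2, 60.6, 54.5, 20.9 and 50.8 CPM in BAC. CTL212 was below 4 of the 5 BAC libraries, and BAC235 was the lowest of all. The log2 fold change was -0.72 (SE 0.28, adjusted p = 0.328). The dendritic protein MAP2 had a value of -0.52 and the cortical factor TBR1 of -0.96 (adjusted p = 0.333 and 0.342).

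Genes of axon guidance were mostly lower in BAC, 30 of 41 tested, with a median of -0.22 (-0.24 without CTL212). At an unadjusted p under 0.05 there were 6, all lower, beside 7.45% of all genes. SEMA5A, a semaphorin that guides growing axons and shapes granule cell synapses, was at 19.6, 27.5, 22.9, 19.4 and 31.0 CPM in CTL and 22.2, 10.3, 9.35, 5.91 and 11.9 CPM in BAC. BAC128 lay among the controls and the other BAC libraries below them (log2 fold change -1.01, SE 0.27, adjusted p = 0.240). PLXNA2, a semaphorin receptor, had a value of -0.45 (SE 0.15), the ligands SEMA3A and SEMA3F -0.68 and -0.69, the ephrin receptor EPHA3 -0.88 and the contactin CNTN4 -0.78. SEMA3A and SEMA3F changed sign within run1630, with values given in the closing section. The list median was -0.07 within run1630 and 0.13 within run0164.

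Receptors for glutamate and GABA gave 10 of 33 members at an unadjusted p under 0.05, all lower, beside 7.45% of all genes. In all 25 were lower and 8 higher, with a median of -0.23 (-0.28 without CTL212). The GABA-A subunit GABRB2 was at 49.2, 70.0, 54.0, 38.1 and 28.0 CPM in CTL and 27.8, 40.2, 20.4, 20.9 and 18.6 CPM in BAC. BAC130 lay above CTL209 and CTL212, and the other BAC libraries below every control. Its log2 fold change was -0.90 (SE 0.28, adjusted p = 0.252), beside -0.74 for GABRA4.

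Glutamate receptor members of this set included the NMDA subunits GRIN2A (-0.51) and GRIN2B (-1.09), the AMPA subunit GRIA3 (-0.38), the kainate subunit GRIK3 (-0.69) and the metabotropic receptor GRM8 (-0.63). The list median was -0.16 within run1630 and 0.12 within run0164, and -0.00 with sequencing run as a block.

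Of 32 synaptic genes, 13 were higher and 19 lower (median -0.09, -0.15 without CTL212 and 0.06 with run as a block). DLG2, a scaffold of the postsynaptic density, was at 14.9, 15.5, 12.5, 15.5 and 7.64 CPM in CTL and 9.24, 6.76, 5.37, 4.17 and 8.51 CPM in BAC (log2 fold change -0.95, SE 0.23, adjusted p = 0.213). Only CTL212 among the controls lay within the range of BAC. The presynaptic genes PCLO, NRXN3 and STX1A were at -0.44, -0.40 and -0.32 and the postsynaptic HOMER1 at -0.32. ARC, an immediate early gene that tunes synapses, was at 0.42 (SE 0.15) and the cerebellin CBLN1 at 1.99, with 73.2 CPM in BAC235. CBLN1 was at 0.25 without BAC235 and at -1.15 without CTL212, BAC130 and BAC235.

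Interneuron and neuropeptide genes lay near the median of all genes, at 0.02 with 10 of 19 higher (-0.05 without CTL212 and 0.21 with run as a block). ERBB4, the neuregulin receptor of interneurons, had a log2 fold change of -0.49 (adjusted p = 0.294) and LHX6, a factor that specifies them, 0.37 (adjusted p = 0.424). Neurotrophin and insulin-like growth factor genes had a median of -0.23 (-0.06 without CTL212), with 7 of 15 higher. The receptors NTRK2, IGF1R and IGF2R were at -0.61, -0.34 and -0.47, with IGF1R lowest in BAC235 at 20.3 CPM against 35.6 to 39.8 CPM in the other BAC libraries.

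Activity and stress lists differed among themselves. Of 13 immediate early genes 11 were higher, with a median of 0.14 (0.47 with run as a block). FOS was at 21.2, 24.8, 25.8, 15.9 and 29.1 CPM in CTL and 47.3, 47.3, 19.2, 39.1 and 74.7 CPM in BAC. BAC136 lay among the controls and the other BAC libraries above them (log2 fold change 0.96, SE 0.35, adjusted p = 0.294). In the heat shock and hypoxia list 7 of 18 were higher (median -0.02, 0.06 without CTL212 and -0.20 with run as a block), among them the oxygen sensor EGLN3 at 0.33 and the mitochondrial chaperones HSPE1 and HSPD1 at 0.61 and 0.29, while the mitophagy receptor BNIP3L and the chaperone HSPH1 were at -0.31 and -0.27. The symbol HSPE1 is carried by 3 identifiers in the table, of which 1 was tested.

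Apoptosis genes gave 0 of 14 at an unadjusted p under 0.05, beside 12.3% of all genes. Their median was -0.08 (-0.0044 without CTL212), with 4 higher. The pro-death BCL2L11 was at -0.50 (95% interval -1.22 to 0.23) and the survival gene BCL2L1 at -0.09 (-0.24 to 0.06). Cholesterol genes had a median of 0.05 (0.00052 without CTL212 and 0.17 with run as a block), 9 of 15 higher, with IDI1, an isomerase of the sterol pathway, at 0.43 (SE 0.14, adjusted p = 0.273). Interferon response genes had a median of -0.23 (-0.02 without CTL212), 5 of 17 higher, with RSAD2, an antiviral enzyme, at -0.45 (95% interval -0.94 to 0.04). Nuclear genes of oxidative phosphorylation had a median of 0.02 (0.13 with run as a block), 12 of 21 higher, with NDUFS1 of complex I at -0.45 and SDHA of complex II at -0.29 (adjusted p = 0.274 and 0.377). None of the mitochondrially encoded genes was matched.

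Oligodendrocyte genes were lower in BAC, 11 of 13 tested, with a median of -0.26 with and without CTL212. At an unadjusted p under 0.05 there were 5, all lower, beside 7.45% of all genes, and 3 without CTL212. Without CTL212, BAC235 and BAC130 the median was -0.14. MBP, a structural protein of myelin, was at 134, 25.3, 84.2, 109 and 78.7 CPM in CTL and 51.4, 23.1, 26.1, 37.5 and 37.5 CPM in BAC. CTL101 lay at the level of the lowest BAC libraries, and the other controls lay above every BAC library. Means were 86.2 ± 40.5 and 35.1 ± 11.2 CPM (SD, n = 5 each), a log2 fold change of -1.29 (SE 0.39, 95% interval -2.13 to -0.46, adjusted p = 0.252).

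The other members of smallest p also belong to the differentiating or myelinating stage. MOBP, a myelin protein, was at 5.01, 0.739, 1.89, 4.08 and 2.32 CPM in CTL and 1.66, 0.783, 0.278, 0.541 and 1.19 CPM in BAC (log2 fold change -1.63, SE 0.56, adjusted p = 0.280). BCAS1, of newly formed oligodendrocytes, had a value of -0.73, the myelin regulator MYRF -0.47 and the cytoskeletal protein ERMN -1.33. ERMN changed sign within run1630 and without CTL212, BAC235 and BAC130, with values given in the closing section. The list median was -0.42 within run1630 and -0.17 within run0164.

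Astrocyte genes had a median of 0.16, 10 of 14 higher, with the gap junction proteins GJB6 and GJA1 at 0.68 and 0.53 (adjusted p = 0.267 and 0.308). GJB6 was at 17.8, 21.8, 22.5, 14.7 and 16.4 CPM in CTL and 27.7, 48.5, 24.0, 32.4 and 16.8 CPM in BAC, with BAC237 among the controls. The astrocyte median was -0.18 within run1630, where the lone control, CTL113, had the highest astrocyte sum of its group (5827 CPM). Microglial genes had a median of 0.12 (0.20 without CTL212 and -0.22 within run1630), 8 of 12 higher, with GPR34 and C1QC at 0.36 and 0.28 and intervals that held 0.

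Values for the vasculature and the brain's linings depended on CTL212. The endothelial median was -0.27 with that library and 0.09 without it, and -0.59 with run as a block, and 12 of 16 were lower; the VEGF receptor FLT1 and the transporter ABCG2 were at -0.33 and -0.47 (adjusted p = 0.382 and 0.333). Pericyte genes had a median of -0.17 and 0.03 without CTL212, 3 of 10 being higher, with RGS5 at -0.51 (-0.31 without CTL212) and ABCC9 at -0.44. The ependymal median was -0.42 and 0.26 without CTL212, 1 of 14 being higher, with DNAH5 and SPAG17 at -0.45 and -0.94.

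Choroid plexus genes gave the largest list value. The median over 14 tested members was -2.74, 13 lower and 10 at an unadjusted p under 0.05, and 0.03 without CTL212. CLIC6, an epithelial channel, was at 421 CPM in CTL212 and at 0.079 to 1.30 CPM in the other controls, and FOLR1, the folate receptor that exports folate into cerebrospinal fluid, at 325.6 CPM and at 0.079 to 0.882 CPM. Their log2 fold changes of -6.67 and -5.73, and that of -2.64 for the bicarbonate carrier SLC4A5, were 0.75, 1.37 and -0.61 without CTL212. TTR, KCNJ13 and AQP1 were not matched.

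Meningeal genes had a median of -0.12 with CTL212 and 0.52 without it, 7 of 17 being higher, with the matrix protein POSTN at -1.91 (-1.16 without CTL212) and FOXC2 at 2.44; FOXC2 was at -1.16 without BAC130. Blood genes were higher in all 5 tested members of a list of 16 (median 0.71). The erythroid factor KLF1 was at 0.90 and the anion exchanger SLC4A1 at 1.26 (adjusted p = 0.377 and 0.553). Both lay near the floor, KLF1 at means of 0.38 CPM in CTL and 0.72 CPM in BAC, and SLC4A1 at 0.25 and 0.63 CPM. The blood sum was highest in BAC128, at 29.3 CPM against 1.62 to 13.1 CPM in the other 9 libraries. Its median was 5.36 CPM in CTL and 5.14 CPM in BAC.

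Lists for neighbouring brain regions were read as a check on dissection. Thalamus and diencephalon genes had a median of 0.21 (0.32 without CTL212 and 0.85 with run as a block), 9 of 12 higher. LHX1 and IRX3 were at 3.05 and 1.49 (adjusted p = 0.240 and 0.323), and at 1.29 and 0.96 without BAC235. The sum of the list ranged from 135 to 234 CPM in CTL and from 126 to 427 CPM in BAC, being highest in BAC235 and BAC130 (337 CPM). Striatum and ganglionic eminence genes had a median of -0.19 (0.03 with run as a block), 4 of 13 higher. PDE10A, a phosphodiesterase rich in striatal neurons, was at 13.1, 19.6, 14.9, 16.3 and 13.9 CPM in CTL and 11.7, 10.3, 7.73, 6.26 and 9.06 CPM in BAC, without overlap (log2 fold change -0.79, SE 0.18, adjusted p = 0.213), and EBF1 was at 0.91, which rested on BAC235 (7.30 CPM against 1.28 to 2.17 CPM in the other BAC libraries) and was 0.19 without it. Neocortical genes had a median of -0.24 (-0.02 with run as a block, -0.06 within run1630 and 0.03 within run0164), 5 of 15 higher, with RORB (given among the clock genes) and RASGRF2 at -0.50. Hippocampal neuron genes had a median of -0.24 (-0.17 without CTL212), 10 of 28 higher, with CA12 at -2.74 (0.39 without CTL212) and TSHZ2 at -1.84. The part of dissection in the gene values was not tested.

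**Figure D5:**
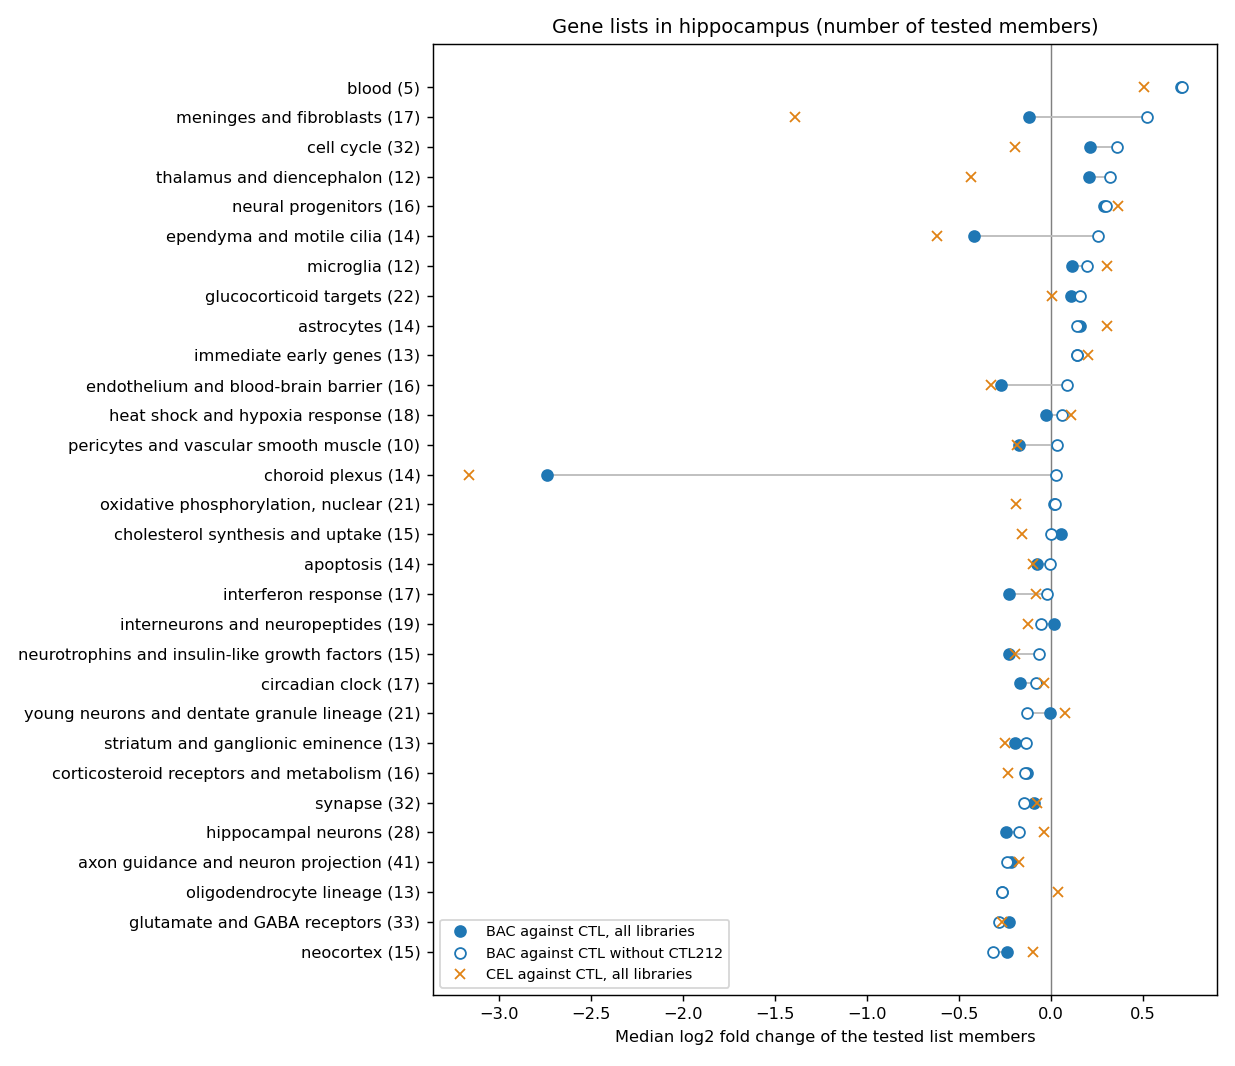
Median log2 fold change of the tested members of 30 gene lists, with their number in brackets, for BAC against CTL with all libraries (filled), without CTL212 (open) and for CEL against CTL (crosses), which uses the same controls. The choroid plexus list moves from -2.74 to 0.03 when CTL212 is left out, while the neural progenitor, oligodendrocyte and receptor lists move by less than 0.1.

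The clinical drug group gives a scale for these values. In the same fit 1366 of 17390 genes (7.86%) were called in CEL against CTL, 435 higher and 931 lower, and 1357 without CTL212. Both comparisons use the same 5 controls, so values are set side by side and not counted as agreement. MAGI3 was at a mean of 14.4 CPM in CEL, beside 15.1 CPM in BAC and 27.6 CPM in CTL, and fell in CEL against CTL by 0.93 on the log2 scale (adjusted p = 0.014). CACNA1E was at 77.6, 66.7 and 122 CPM in these groups, LPAR1 at 8.22, 7.26 and 4.58 CPM, and ICOSLG at 19.1, 24.3 and 15.0 CPM. FKBP5 was at 3.28 CPM in CEL, 4.48 in BAC and 4.13 in CTL. The list medians in CEL against CTL were 0.37 for progenitors, -0.27 for receptors, -0.17 for axon guidance, -0.20 for the cell cycle and 0.04 for oligodendrocytes.

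BAC and CEL were also compared directly, which asks whether the 2 drug regimens differ at their own doses (0.125 and 0.25 mg/kg, so that agent and dose differ together). The quasi-likelihood test called 0 of 17390 genes (0%), with a smallest adjusted p of 0.208, 2346 genes (13.5%) at an unadjusted p under 0.05, and 186 calls by DESeq2. Each drug group had 3 libraries in run1630 and 2 in run0164, and with run as a block the test called 13 genes, 4 higher and 9 lower in BAC. The 0 calls without it do not show that they act alike. MAGI3 differed by 0.06 on the log2 scale (SE 0.17). A pair of genes picked after their values were seen had intervals that left out 0. GFRA1 was at 7.66 ± 1.53 CPM in BAC and 12.6 ± 2.51 CPM in CEL (SD, n = 5 each, log2 fold change -0.71, 95% interval -1.13 to -0.29, adjusted p = 0.219). MBP was at 35.1 CPM in BAC and 81.2 CPM in CEL (-1.21, 95% interval -2.04 to -0.38, adjusted p = 0.241). The oligodendrocyte list had a median of -0.51 in this comparison, with 8 of 13 members at an unadjusted p under 0.05, all lower in BAC, beside 5.43% of all genes and a median of 0.00 over them. The summed oligodendrocyte markers were 614 to 788 CPM in BAC, 820 to 1225 CPM in CEL and 653 to 1016 CPM in CTL, so BAC and CEL did not overlap and CTL lay across both.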

How the data were processed

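RNA was measured in 15 fetal hippocampus libraries. The deposited table holds raw read counts per gene; per the labels and the study's methods the authors aligned reads with Bowtie2 and counted them with featureCounts, with no versions given, and the study's methods name a rhesus build in a passage on lung RNA without saying whether it was used for hippocampus. Of 32386 identifiers, 17621 (54.4%) were matched to a symbol. The 17390 genes that reached 7 reads in 5 or more libraries entered the test in R 4.3.3 with edgeR 4.0.16 (TMM, quasi-likelihood F-test, 15 libraries in 1 fit); a gene was called at a 1.5-fold difference, an unadjusted p below 0.05 and a Benjamini-Hochberg adjusted p below 0.1. CPM are TMM-normalized; the prior count was 0.125 for fold changes and 2 for log2 CPM. The common biological coefficient of variation was 0.270. An SE is the log2 fold change divided by the square root of F; intervals are 95%. Adjusted p run over all tested genes. Scripts were tested on simulated data. DESeq2 1.42.0, other edgeR tests, RLE factors, filters, sequencing run, gestational age and left-out libraries were the alternatives.

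Named genes were a fixed panel of glucocorticoid genes, the 10 of smallest p in each direction among genes with a symbol, an unadjusted p under 0.05, a fold change of 1.5 and no overlap between groups, and the 2 members of smallest p in each list, with any further named member of p under 0.05 added; some genes these rules name are not reported here. Members, lists and rules were chosen with earlier results of these data known. Each library is a separate fetus per the labels.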

Additional observations from a re-analysis of the deposited data

Results flagged for a closer look

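In a group of 5 a library was picked out when its gap to its nearest neighbour was large against the range of the group (Dixon's 95% criterion). Of 150 groups of values checked, 23 (15.3%) were picked out. The criterion gives about 5% for independent normal values, while these values are correlated within a library. CTL212 accounted for 8 of the 23, and some genes checked had been chosen as choroid plexus markers. The excess over 5% is therefore no measure against chance.

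CTL212 was the highest control in choroid plexus markers (2158 CPM), meningeal and fibroblast markers (2013 CPM), ependymal markers (812.4 CPM) and pericyte markers (465.2 CPM), and in CLIC6 (420.7 CPM), FOLR1 (325.6 CPM), PDK4 (5.96 CPM) and SDHA (119.8 CPM). CTL092 had the fewest reads, 18.3 M against 23.7 M or more, and 0.749% of them on the run of 37 identifiers. CTL101 was highest in REEP1 (62.0 CPM) and lowest in EGLN3 (19.9 CPM, against 22.7 to 23.2 CPM), and CTL113 was highest in summed astrocyte markers (5827 CPM).

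BAC235 stood apart in HSD11B2 (15.4 CPM), LHX1 (8.39 CPM), FOLR1 (3.32 CPM), AURKA (4.10 CPM) and IGF1R (20.3 CPM, the lowest). BAC130 stood apart in FOXC2 (17.4 CPM), CLIC6 (3.25 CPM) and summed striatal markers (239.9 CPM), and had the lowest summed oligodendrocyte markers (614.4 CPM against 755 to 788 CPM). BAC136 was lowest in KIF16B, at 7.32 CPM against 9.57 to 10.01 CPM.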

How the results depend on the processing

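The count of 0 for BAC against CTL was the same with RLE factors, other filters, the 2 groups alone, run or gestational age in the model, no fold threshold, run1630 alone, and without CTL212 and BAC235, whether or not BAC130 was also left out. It was 149 with DESeq2, 104 with the exact test, 108 with the likelihood ratio test, 1 with Storey's q value, 617 at unadjusted p, 1366 with groups from the treatment field, 300 within run0164, and 0 to 184 with a library left out (184 without BAC128). Without CTL212 it was 274 with DESeq2 and 0 to 262 with a further library left out (262 without BAC128, 109 without BAC237, 1 without CTL113 or BAC130). BAC against CEL gave 186 with DESeq2 and 13 with run as a block. No paired analysis was possible because the groups share no replicate numbers.

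The separation of the groups (0.488) was -1.997 over the 500 most variable genes and -1.02 to 1.93 with a library left out. The difference in spread (-0.659) was 0.0005034 on Spearman distances, 6.37 without CTL212 and BAC235, and -8.55 to 14.3 with a library left out.

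Of 589 list medians under the alternatives, 70 moved by more than the spread between libraries. For single genes 2507 of 2631 alternative values kept their direction and side of the threshold, 67 passed it and 57 changed sign; none of the causes was tested. With run as a block FKBP5, ZBTB16 and NTRK2 were at -0.185, 0.124 and 0.014, and in the 2 runs that hold all groups at -0.161, 0.144 and 0.038. Within run1630 HSD11B2 was at -0.51, CLIC6 1.60, BCL2L11 0.63, BCL2L1 0.036, GPR34 -0.15, C1QC -0.17, RASGRF2 0.13, CA12 0.15, PAX6 -0.16, NEUROD1 -0.093, SEMA3A 0.52, SEMA3F 0.059, NTRK2 0.12, ERMN 0.018 and RORA 0.11. Within run0164 FKBP5 was at -0.52, ZBTB16 0.32, SGK1 -0.045, TXNIP -0.016, STX1A 0.14 and NPAS2 0.43. Without CTL212 and BAC235 ZBTB16 was at 0.058, PDK4 0.15, NR3C2 0.037, CLIC6 0.98, FOLR1 0.57, SPAG17 0.060 and CA12 0.55; without BAC130 as well ZBTB16 was at 0.13, PDK4 0.23, NR3C2 0.24, FOLR1 0.76, SPAG17 0.22, CA12 0.59, CBLN1 -1.15 and ERMN 0.054. Without CTL092 and BAC235 ZBTB16 was at 0.086, NR3C2 0.069 and HSD11B2 -0.24. With each library left out in turn ZBTB16 ranged from -0.29 to 0.13, FKBP5 from -0.060 to 0.24, NR3C2 from -0.286 to 0.063, FOXC2 from -1.16 to 3.11, HSD11B2 from -0.10 to 2.52, PDK4 from -0.60 to 0.12, CLIC6 from -8.43 to 0.75, FOLR1 from -6.53 to 1.37, SPAG17 from -1.14 to 0.15 and CA12 from -3.04 to 0.39. With 5 animals a group and a coefficient of variation of 0.270, the intervals of single genes span a log2 width that leaves modest changes undetectable.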
